A study of Mus musculus with 2 samples.

Results

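The cells described here are luminal-type epithelial cells with abundant Msmb transcript in the single-cell library of a DoubleTg mouse prostate. Members were selected on measured counts: over 200 and under 7000 detected genes, under 15% mitochondrial UMIs, at least 1 Epcam UMI, no Ptprc UMI, at least 50 Msmb UMIs per 10000 UMIs of the cell, under 50 for Pbsn and under 1000 for Sbp and Sbpl together. A UMI is a molecular barcode that counts 1 captured transcript. Of 12072 DoubleTg cells, 10598 passed the gene and mitochondrial limits, 8458 of these were Epcam+ Ptprc-, and 1218 (14.4%) met the whole rule. Both libraries of the series hold 21564 cells.

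DoubleTg mice (hHGFtg:H11 hMET/+:PB Cre4) carry a human HGF transgene that is active throughout the body and a human MET transgene behind a loxP-flanked stop cassette and the CAG promoter, opened by Cre recombinase from the probasin promoter. The other library came from TripleTg mice, which share those 3 alleles and add stabilised β-catenin (Ctnnb1 L(Ex3)/+) in the same Cre-expressing cells. The labels name the DoubleTg tissue prostatic adenocarcinoma and the TripleTg tissue prostatic carcinoma, and do not say how many animals were pooled. The age at dissection is not given in the sources used here. Each genotype is 1 library, so no difference could be tested against replicate animals, and the values below carry 95% intervals for counting error only. Tumour, precursor and normal luminal cells were not told apart, and Cre from the probasin promoter acts only where that promoter is or was active.

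Msmb encodes β-microseminoprotein, a small protein that luminal cells of the prostate secrete into seminal fluid. Prostate luminal cells differ by lobe in the proteins they secrete: probasin (Pbsn), spermine binding protein (Sbp) and transglutaminase 4 (Tgm4) mark others. Reg3b and Reg3g encode secreted C-type lectins that bind bacteria and are best known from the gut, where cytokines that act through STAT3 induce them. Defensins (Defb1, Defb50) are small cationic antimicrobial peptides of epithelia.

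Reg3b lies at chr6:78370657-78373466 on the plus strand and Reg3g at chr6:78466269-78468872 on the minus strand of mm10, as GENCODE gives the whole genes. Their RefSeq promoter windows (GRCm38.p6, 250 bases before to 50 after the start) are shown because this neighbouring pair was among the transcripts furthest above the other cells, with Tesc for contrast, the gene that most exceeded every other group. Capitals mark matches to 2 motifs searched on both strands. These were a STAT motif with the letters TTCNNNGAA and a TATA box, for which the letters were TATAAAA.
Reg3b, chr6:78370635-78370934, plus strand: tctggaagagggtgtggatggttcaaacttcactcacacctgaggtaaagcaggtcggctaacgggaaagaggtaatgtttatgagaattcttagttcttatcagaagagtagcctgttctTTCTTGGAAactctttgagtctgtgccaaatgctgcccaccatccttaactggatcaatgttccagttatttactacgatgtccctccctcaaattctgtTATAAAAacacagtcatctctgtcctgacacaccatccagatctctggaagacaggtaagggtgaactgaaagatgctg
Reg3g, chr6:78468825-78469124, minus strand: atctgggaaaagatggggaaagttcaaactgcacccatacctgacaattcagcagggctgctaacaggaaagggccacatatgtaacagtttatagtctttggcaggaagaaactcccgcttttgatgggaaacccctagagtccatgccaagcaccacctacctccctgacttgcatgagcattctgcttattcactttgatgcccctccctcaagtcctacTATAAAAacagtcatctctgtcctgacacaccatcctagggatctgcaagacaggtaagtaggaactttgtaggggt
Tesc, chr5:118027493-118027792, plus strand: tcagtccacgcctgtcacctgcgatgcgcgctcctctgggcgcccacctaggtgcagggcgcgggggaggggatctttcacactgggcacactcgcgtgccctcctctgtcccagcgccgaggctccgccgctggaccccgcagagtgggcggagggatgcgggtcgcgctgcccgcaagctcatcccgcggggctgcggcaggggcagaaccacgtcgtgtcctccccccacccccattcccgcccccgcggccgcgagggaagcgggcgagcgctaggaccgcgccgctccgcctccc
The Reg3b window held a STAT motif starting 129 bases before the start and a TATA box 29 bases before it. The Reg3g window held a TATA box 27 bases before the start and no STAT motif. The windows of the pair shared 207 of 300 bases in a global alignment, with a common run of 29 bases. The STAT motif occurred in 8.30% of all 32851 windows and the TATA box in 5.48%. The Tesc window held neither motif, and 6 of 10 leading genes had a window. Distances are from the RefSeq start, which for Reg3b lies inside the GENCODE gene span given above. A match is a match of letters and was not tested as a binding site.

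Members were deep cells for the most part, with a median of 34810.5 UMIs, 4980 genes and 3.28% mitochondrial UMIs, against 19709 UMIs in the other 7240 Epcam+ Ptprc- cells. There were exceptions. In 165 members (13.5%) the total was under 5000 UMIs, with a median of 1063 UMIs and 1.20% mitochondrial UMIs, and in 16 members the seminal vesicle transcripts Svs2, Svs4 and Svs5 together reached 50 per 10000. Just 2 deeper cells held 25466 of the members' 26941 Svs2 UMIs (94.5%), so the members' Svs2 level of 605 CPM (UMIs of a gene scaled to the same total in every group) became 28.0 CPM in the 1051 members with at least 5000 UMIs and fewer seminal vesicle UMIs. The low-depth cells held 0.566% of the members' UMIs, and leaving out both kinds moved the Reg3b level from 180 to 179.9 CPM and the Defb50 level from 26102 to 26195 CPM. Scrublet called 21 members doublets (1.72%). The libraries shared 30 barcodes, 3 of them members'.

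Msmb formed a gradient with no gap at the limit. Members ranged from the limit of 50 to 816 Msmb UMIs per 10000, with a median of 133, and held 69.5% of the Msmb UMIs of all Epcam+ Ptprc- DoubleTg cells. Just inside the limit, 108 cells lay from 50 to under 60, and just outside it 127 cells lay from 40 to under 50. The cells on either side had the same median Defb50, 54.4 per 10000. Of 336 Ptprc+ Epcam- cells, which should lack Msmb, 1 reached 50, and their pooled level was 217 CPM, against 16267 in members.

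**Figure D1:**
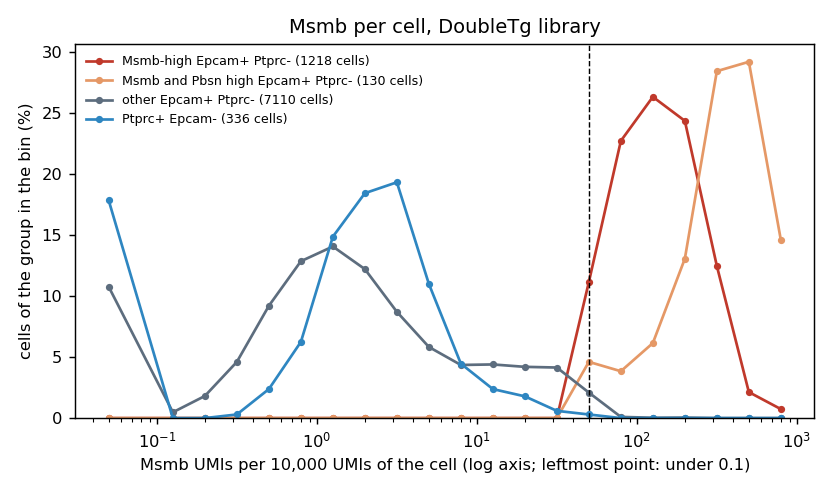
Msmb UMIs per 10000 UMIs of each cell (log axis) against the percentage of each group's cells in a bin, for Msmb-high members (1218 cells), cells high in Msmb and Pbsn (130), all other Epcam+ Ptprc- cells (7110) and Ptprc+ Epcam- cells (336). The dashed line is the limit of 50, which the rule used, and the other cells run up to it without a gap.

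The other Epcam+ Ptprc- cells were divided by levels of their own secretory or keratin genes into 637 Sbp-high, 130 Msmb and Pbsn high, 374 Pbsn-high, 136 seminal vesicle-type and 1850 basal-type cells, with 4113 remaining cells, mostly luminal. These groups, like the members, were selected on counts, so the folds are descriptions. Of 7150 genes at 10 CPM or more in either group, 62 (0.867%) were at least 2-fold higher in members than in all other Epcam+ Ptprc- cells and 333 (4.66%) at least 2-fold lower. The members were the deeper cells, and after thinning to 5000 UMIs the counts were 185 and 666, while a mean over cells of CPM gave 127 and 650. The number of genes tested can differ under these settings and is not given for them. Against the remaining cells alone, 0.734% of 7217 genes were 2-fold higher and 4.3% 2-fold lower.

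The luminal keratins Krt8, Krt18 and Krt19 stood at 4226, 3729 and 4469 CPM in members, against 4336, 3425 and 3789 CPM in the other cells. The basal keratins Krt5 and Krt14 were at 12.1 and 36.0 CPM, against 1126 and 3251 CPM in basal-type cells, and 19 members (1.56%) passed the basal limit of 10 per 10000. The 21 members called doublets held Krt14 at 815 CPM and the other members at 21.6 CPM, below the 23.9 CPM of the remaining cells, and the part of doublets in these levels was not tested. Of 9 measured basal markers 7 were at least 2-fold lower than in the other cells, which include the basal-type cells chosen on Krt5 and Krt14. Against the remaining cells 3 of 9 were at least 2-fold lower, and the remaining cells, unlike the members, had been limited on Krt5 and Krt14. The 11 stromal and endothelial markers summed to 31.6 CPM in members and 301 CPM in the remaining cells, and the 11 immune markers to 11.9 and 43.2 CPM, against 7659 CPM in Ptprc+ Epcam- cells.

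Of the marker genes in the label, Reg3b, Reg3g and Chodl were higher in members than in all but 1 or none of the other groups, and Ppp1r1b was not particular to them. Reg3b reached 180 CPM (176 to 184), against 48.9 CPM in the remaining cells, 2.76 CPM in Pbsn-high cells and 2.02 CPM in Ptprc+ Epcam- cells. It was higher still, 344 CPM (328 to 360), where Msmb and Pbsn were both high. Reg3g followed the same order, with 257 CPM in members, 468 CPM in Msmb and Pbsn high cells, 109 CPM in the remaining and 33.6 CPM in Pbsn-high cells. As pooled levels, both genes were higher in the 2 groups chosen for high Msmb than in Pbsn-high cells.

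Reg3b was detected in a minority of members and Reg3g in most, and a small share of cells held most of their UMIs. The median member had no Reg3b UMI, the 90th percentile was 4.43 per 10000 and the highest 98.4. Thinning to 5000 UMIs per cell left 1053 members, of which 42.9% (39.9 to 46.0, exact binomial) had at least 1 UMI of either gene. The share was near that, 41.7% (32.3 to 51.5), in 108 Msmb and Pbsn high cells. It was 19.0% in 3382 remaining cells, 13.0% in 293 Pbsn-high cells and 2.88% in 278 Ptprc+ Epcam- cells. Without thinning, 32.2% of members had a Reg3b UMI and 61.2% a Reg3g UMI. A tenth-sized share of the thinned members, those with the most UMIs, held 67.3% of the pair's UMIs, and 130 members (12.3%) had at least 5. Among the Msmb and Pbsn high cells 13.9% had that many, among the remaining cells 3.76%, and none of the Ptprc+ Epcam- cells did.

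Chodl, which encodes the transmembrane lectin chondrolectin (chr16:78930948-78951733, plus strand), was at 98.2 CPM (95.4 to 101) in members, 61.0 CPM in Msmb and Pbsn high cells, 41.9 CPM in the remaining cells and 5.95 CPM in Sbp-high cells. It had a UMI in 70.3% of members and 26.1% of the other cells before thinning, and in 33.8% and 9.53% after it, against 0.360% of thinned Ptprc+ Epcam- cells. Ppp1r1b, the gene of the phosphatase regulator DARPP-32, stood at 68.4 CPM (65.9 to 70.8) in members and 64.4 CPM (62.9 to 66.0) in the remaining cells, a log2 ratio of 0.09 (0.02 to 0.15). It was lower, 23.5 CPM, in the Msmb and Pbsn high cells.

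**Figure D2:**
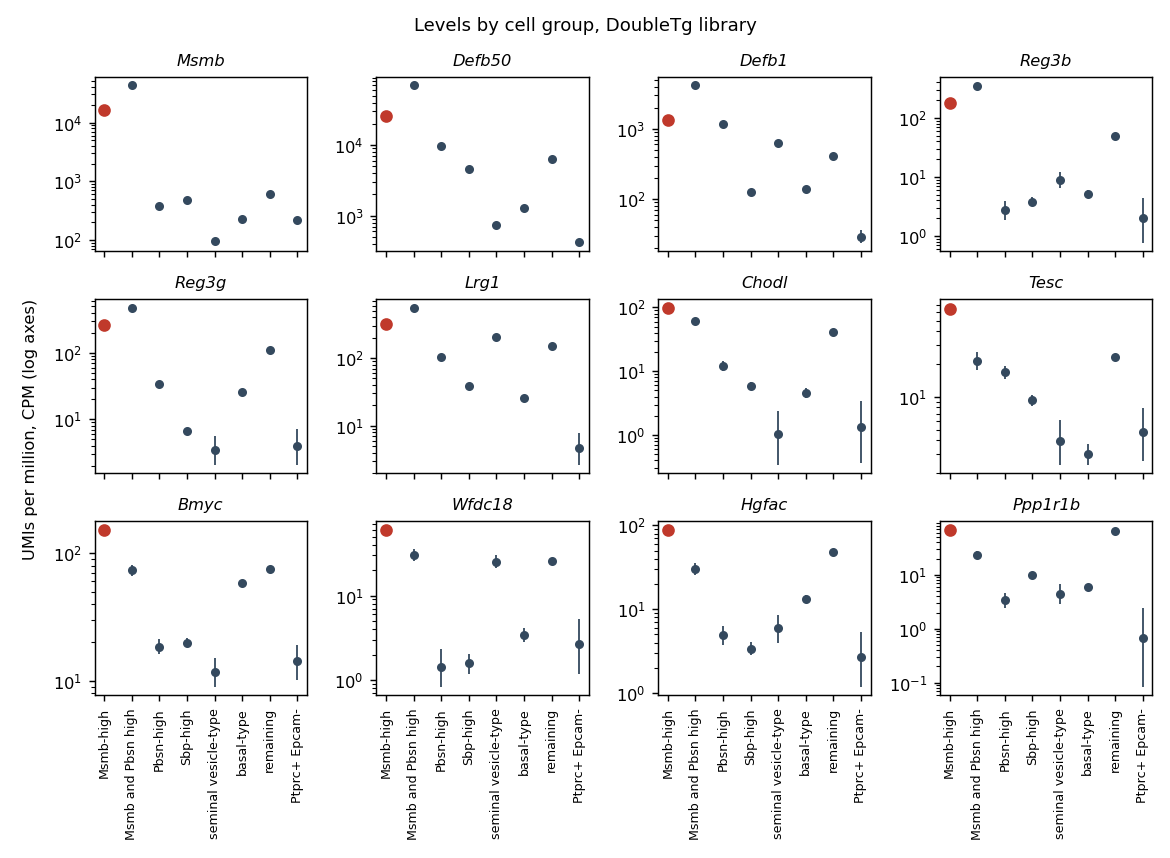
Levels of 12 genes in CPM (log axes) by cell group of the DoubleTg library; points are pooled counts, bars are exact Poisson intervals for counting error, and members are red. Defb50, Defb1, Reg3b, Reg3g and Lrg1 are highest in Msmb and Pbsn high cells, whereas Chodl, Tesc, Bmyc, Wfdc18 and Hgfac are highest in members.

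The list of mucosal defence genes had 12 of 34 measured against the other cells. Of these, 5 were at least 2-fold higher and 3 at least 2-fold lower, where over all genes 0.867% were higher and 4.66% lower. The median log2 ratio was 0.57 beside 0.04 for all genes. Reg3b and Reg3g, marker genes given in the label, are among the 5 and enter the median. Besides the Reg3 pair, the higher genes were Defb1 (1328 against 471 CPM), Wfdc18, a whey acidic protein domain gene (59.2 against 16.7 CPM), and the acute phase gene Saa3 (19.7 against 3.01 CPM, in 2.87% of members). The lower genes were Lcn2, the siderophore-binding lipocalin (95.4 against 245 CPM), lactoferrin Ltf (1.17 against 14.6 CPM) and trefoil factor Tff3 (0.112 against 21.8 CPM). Lcn2 was at 83.4 CPM in the remaining cells, 568 CPM in basal-type cells and 4234 CPM in seminal vesicle-type cells, so it was not lower in members than in the remaining cells. Pigr, the receptor that carries IgA across epithelia, stood at 986 CPM in members and 796 CPM in the remaining cells. Against the remaining cells the median of the list was 0.25, beside -0.10 for all genes. Against the Msmb and Pbsn high cells it was 0.06, beside 0.15 for all genes. There 2 of 11 genes were at least 2-fold higher and 3 lower, and over all genes 3.69% and 1.64%.

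Defb50 (chr8:21823539-21831296, plus strand) was the most abundant of these secreted products. It took 2.61% of the members' UMIs, more than Msmb itself at 1.63%, against 0.707% in the other cells and 7.04% where Msmb and Pbsn were both high. A member had a median of 159 Defb50 UMIs per 10000, with 14.1 at the 10th and 533 at the 90th percentile. Its level in Ptprc+ Epcam- cells was 428 CPM, or 0.0428% of UMIs, and 92.9% of those cells had a UMI, against 99.7% of members, so a level and not a share of cells with a UMI shows the difference.

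A list for IL-6, IL-22 and IL-17 signalling held receptors, transducers and response genes. In it 14 of 19 genes were measured, 2 were at least 2-fold higher and none lower. The median log2 ratio was -0.26, beside 0.04 for all genes, of which 0.867% were 2-fold higher and 4.66% lower. The higher genes were Lrg1, a secreted leucine-rich glycoprotein (324 against 122 CPM), and the fucosyltransferase Fut2 (23.0 against 10.3 CPM). Stat3 stood at 94.0 CPM in members and 96.7 CPM in the other cells, and its feedback inhibitor Socs3 at 19.6 and 28.9 CPM.

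The genes that most exceeded the highest of the 6 other groups, among genes at 50 CPM or more in members, were Tesc, Bmyc, Wfdc18, Hgfac, Cmbl, Anpep, Chodl, Srebf1, Homer2 and Cldn10. Tesc, which encodes the calcium-binding protein tescalcin, was at 64.7 CPM (62.3 to 67.1) in members and at most 23.1 CPM elsewhere, a log2 ratio of 1.48. Bmyc, a Myc family gene, was at 151 CPM and at most 74.7 CPM elsewhere (1.02). Hgfac, the protease that activates pro-HGF, reached 87.8 CPM (85.1 to 90.6), against 47.9 CPM in the remaining and 30.4 CPM in Msmb and Pbsn high cells. The log2 ratio for the rest lay between 0.59 for Cldn10, a claudin, and 0.95 for Wfdc18. Anpep encodes aminopeptidase N and Srebf1 a regulator of lipid synthesis.

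Detection differed between these genes. Tesc had a UMI in 47.8% of members and 13.7% of the other cells, and in 19.2% and 4.59% after thinning, against 2.52% of thinned Ptprc+ Epcam- cells. Cldn10 had a UMI in 64.4% of thinned members and 22.1% of the other cells, and in 2.52% of Ptprc+ Epcam- cells.

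Among genes at 50 CPM or more in either group, the 15 highest log2 ratios over all other cells were led by Msmb itself (3.31, used by the rule) and then ran from 2.22 for Reg3b (2.18 to 2.27) to 1.30 for Cmbl. They were Tesc, Defb50, Wfdc18, Chodl, Reg3g, Ccdc80, Hgfac, Defb1, Cldn10, Lrg1, Bmyc, the sphingolipid desaturase Degs2 and Cmbl in between or at the end. The 15 lowest at the same minimum were Svs4, Sbp, Scgb2b27, Igfbp5, Sbpl, Pdpn, Cxcl14, C1rb, A630095E13Rik, Krt5, Aqp3, Lgals7, Krt14, Col17a1 and 9530053A07Rik. Sbp and Sbpl were used by the rule, and Svs4, Krt5, Krt14 and Col17a1 mark groups that the comparison holds. Igfbp5, an insulin-like growth factor binding protein, was low in members (4.96 CPM) against the remaining cells (131 CPM) and Pbsn-high cells (273 CPM) alike.

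Genes of the proximal, urethra-near luminal type lay between the groups. Against the remaining cells 5 of 12 measured genes were at least 2-fold lower in members and none higher, with a median log2 ratio of -0.73 beside -0.10 for all genes. Psca was at 350 against 1014 CPM, Krt7 at 128 against 373 CPM, Ly6d at 35.9 against 243 CPM, and the stem-cell antigen gene Ly6a at 1184 against 1778 CPM. Against the Msmb and Pbsn high cells, where 3.69% of genes were 2-fold higher and 1.64% 2-fold lower, 9 of 12 were at least 2-fold higher and 1 lower, with a median of 1.65. Psca was at 58.9 CPM and Ly6a at 433 CPM in those cells. Against Pbsn-high cells, where 7.1% of genes were higher and 5.37% lower, 8 of 11 proximal genes were higher and none lower.

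Most secretory pathway genes were modestly higher than in the pooled other cells, but not than in the Pbsn-expressing groups. Of 26 measured genes for ER folding and secretion, 22 were above the other cells and 4 below, with a median log2 ratio of 0.46, yet none was 2-fold higher and 1, the glutathione-degrading enzyme gene Chac1, was 2-fold lower. The disulfide isomerase Agr2 had the highest ratio, with 904 CPM against 460 CPM in the other and 432 CPM in the remaining cells. Sec61b, a subunit of the ER translocon, was at 1474 against 812 CPM. Relative to Msmb and Pbsn high cells 18 of 25 were below 0, with a median of -0.09. Relative to Pbsn-high cells 20 of 26 were below 0, with a median of -0.30, with Chac1, Trib3, Asns and Atf4, genes of the amino acid and ER stress response, at least 2-fold lower in members. Among 17 lipid synthesis genes 15 were above the other cells, and the desaturases Scd1 (175 against 72.9 CPM) and Scd2 (202 against 98.2 CPM) passed 2-fold.

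Androgen-regulated genes differed little from the pooled other cells and the remaining cells. Of 16 measured, none was 2-fold higher and 1, Ndrg1, was 2-fold lower, with a median log2 ratio of 0.26 against the other cells and 0.05 against the remaining cells. Against Pbsn-high cells 4 of 16 were at least 2-fold higher and 4 lower, with log2 ratios from -3.10 to 2.44. The steroid receptor co-chaperone gene Fkbp5 was at 75.4 CPM in members against 49.9 CPM in the remaining cells, and the membrane metalloendopeptidase gene Mme at 304 against 170 CPM. Among 22 lineage transcription factors none was 2-fold higher and 1, Meis2, was lower, at 0.786 against 10.9 CPM in the other cells.

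**Figure D3:**
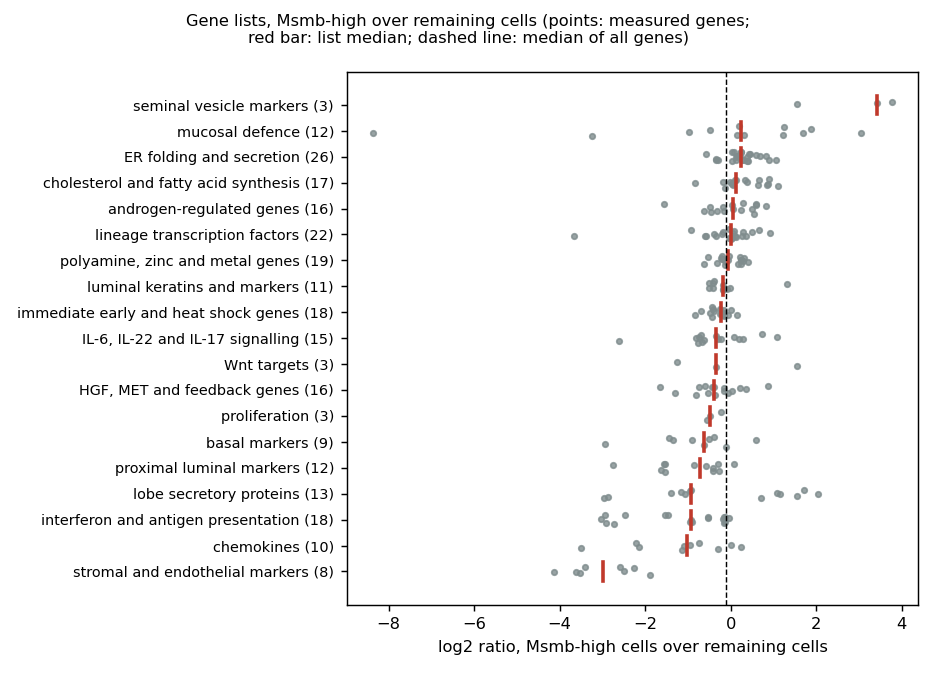
Log2 ratio of Msmb-high members over the remaining cells for each measured gene of the gene lists with at least 3 such genes (gene number in brackets), with list medians as red bars and the median of all genes, -0.10, as the dashed line. Most secretory pathway genes sit right of the line, most interferon, chemokine and proximal genes left of it, and the seminal vesicle list rests on 2 member cells.

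The human MET transgene was detected in most members. Its transcript, hMETtg, had a UMI in 82.8% of members (80.6 to 84.9), and in 76.9% (74.3 to 79.4) after thinning, against 44.8% of thinned other cells and 9.35% of thinned Ptprc+ Epcam- cells. In level it was at 518 CPM (512 to 525) in members, 580 CPM in the remaining, 326 CPM in Msmb and Pbsn high and 69.3 CPM in basal-type cells. Mouse Met followed, at 125 CPM in members and 162 CPM in the remaining cells, and hHGFtg was at 431 and 334 CPM. In the list of HGF, MET and feedback genes, 2 of 16 were at least 2-fold lower than in the remaining cells and 0 were 2-fold higher. Over all genes 4.3% were lower and 0.734% higher. The 2 were the plasminogen activators Plat (189 against 469 CPM) and Plau (4.38 against 13.7 CPM).

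Interferon, antigen presentation and chemokine genes were mostly lower than in the remaining cells. All 18 measured interferon and antigen presentation genes lay below, 7 of them at least 2-fold, with a median log2 ratio of -0.92. For all 7217 genes the median was -0.10, and 4.3% were at least 2-fold lower. The class II genes H2-Aa, H2-Ab1 and H2-Eb1 and their chaperone Cd74 were furthest, with Cd74 at 36.4 against 241 CPM, whereas the class I genes H2-K1 and H2-D1 differed little (1429 against 1631 CPM for H2-K1). Of 10 chemokine and growth factor genes 5 were 2-fold lower, among them Ccl2 (4.99 against 56.6 CPM) and Cxcl2 (119 against 264 CPM). Against Pbsn-high cells all 6 measured chemokine and growth factor genes were above 0, 4 of them at least 2-fold higher. Of 16 interferon and antigen presentation genes 11 were above 0 in that comparison, 1 at least 2-fold higher and 4 at least 2-fold lower. Over all genes 7.1% were at least 2-fold higher than in Pbsn-high cells and 5.37% lower. The immune and stromal marker sums given above were also higher in the remaining cells, and their part in these differences was not tested.

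Of the 12 Wnt targets listed, 3 were measured. The list leaves out Sox9 and Mmp7, measured genes that the authors count among β-catenin targets. Sp5 was at 15.1 CPM in members and 3.54 CPM in the other cells, Ccnd1, the cyclin D1 gene, at 19.7 and 111 CPM, and Myc at 79.7 and 108 CPM, where basal-type cells held 505 CPM of Ccnd1. Cells with at least 3 detected proliferation genes after thinning made up 1.61% of members (17 of 1053, 0.943 to 2.57), 3.61% of the remaining cells and 5.18% of basal-type cells. The other groups had lower shares, from few cells. These were 1 of 108 Msmb and Pbsn high (0.926%), 4 of 550 Sbp-high (0.727%), 1 of 293 Pbsn-high (0.341%) and 0 of 90 seminal vesicle-type cells. None of 18 immediate early and heat shock genes, which can rise during tissue dissociation, and 1 of 20 polyamine, zinc and metal genes passed 2-fold against the other cells.

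Levels differed by degrees with Msmb. Members and remaining cells with at least 5000 UMIs and few seminal vesicle UMIs were ordered into 7 ranges of Msmb, from under 2 (2117 cells) to 200 and over (276 cells) per 10000. Defb50 was at 5749 CPM in the lowest range, 9854 CPM from 25 to under 50, 14775 CPM from 50 to under 100 and 42180 CPM in the highest. Agr2 ran from 430 CPM in the lowest to 1204 CPM in the highest range, and Mme from 162 to 373 CPM. In the other direction Psca ran from 1174 to 222 CPM and Spink5 from 1562 to 45.0 CPM.

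As a pooled level, Reg3b stepped up earlier, below the limit. It was at 32.9 and 33.5 CPM in the 2 lowest ranges, 113 CPM from 10 to under 25, 135 CPM from 25 to under 50, 120 CPM from 50 to under 100 and 231 CPM in the highest. Shares of cells with Reg3b are not given by range. A tenth-sized share of the thinned remaining cells held 87.3% of the Reg3 pair's UMIs, so few cells can set a range's level. Tesc was at 15.5 CPM in the lowest range, 23.7 CPM from 2 to under 10 and 51.5 CPM from 10 to under 25, and then stayed between 50.1 and 70.0 CPM. hMETtg went from 603 to 499 CPM over the whole course. Ppp1r1b was highest from 10 to under 25 (104 CPM) and lowest in the highest range (44.7 CPM).

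**Figure D4:**
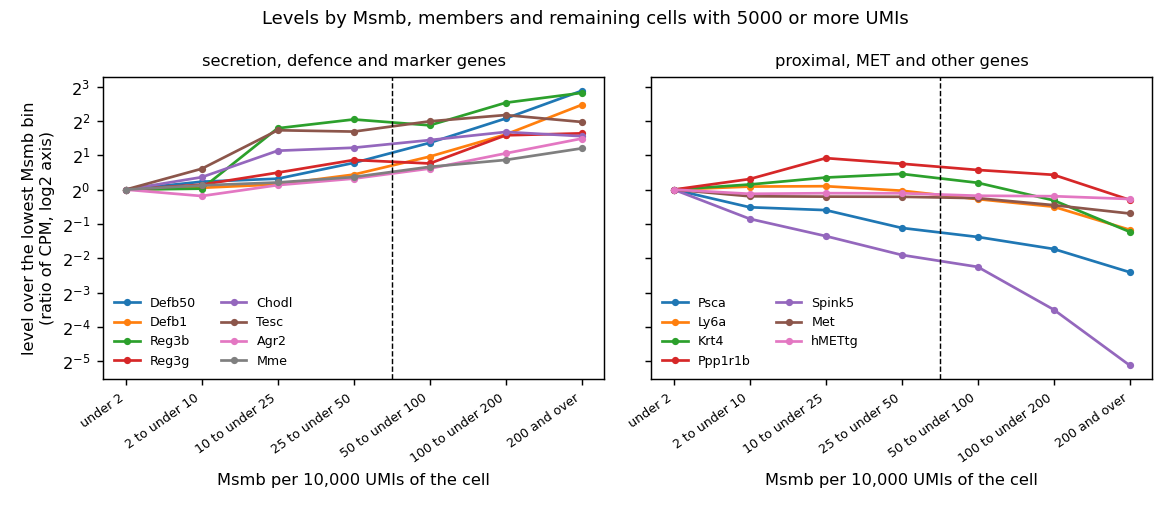
Level of each gene relative to the lowest Msmb range (ratio of CPM, log2 axis) over 7 ranges of Msmb per 10000 UMIs, in members and remaining cells with at least 5000 UMIs; the dashed line is the members' limit of 50. Defb50, Defb1, Agr2 and Mme climb across the limit, Reg3b and Tesc are higher from 10 upward, below it, and Psca and Spink5 decline.

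The members were not uniform. Clustering the 1051 members with at least 5000 UMIs and few seminal vesicle UMIs gave 6 subgroups, and the genes below describe the clusters that they helped to form. Among subgroups 1 to 5, the larger ones, subgroup 1 (310 cells) led in Krt6a (664 CPM), Prr9 (461 CPM) and the EGF receptor ligand Areg (221 CPM), genes of squamous or wound-type epithelium, and had the most hMETtg (734 CPM). Subgroup 2 (209 cells) led the same 5 in Cxcl1 (128 CPM) and in the interferon-induced genes Rsad2 (122 CPM) and Ifit1 (76.3 CPM). Rsad2 had a UMI in 28.7% and Ifit1 in 35.4% of its cells. The chemokine gene Cxcl10 was higher in subgroup 5 (117 CPM) than in subgroup 2 (69.7 CPM). Over the other clustered members, the highest ratios of subgroup 2 were those of Apod and Saa3. Subgroup 3 (200 cells) carried Spink1 at 10397 CPM, against 232 to 481 CPM in subgroups 1, 2, 4 and 5, with Spink5 at 609 CPM and Sbp at 7370 CPM. These pooled values rest on part of its cells, since the 90th percentile of Spink1 over all 1051 members clustered was 7.74 per 10000 and the highest 1940.

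Subgroups 4 and 5 had the most Msmb, 22088 and 22656 CPM, and the most Defb50, 37787 and 49323 CPM. They differed in Reg3b. Subgroup 4 (162 cells) had 34.7 CPM of Reg3b (30.2 to 39.7) and 170 CPM of Reg3g, near the 178 and 169.8 CPM of subgroups 2 and 3, and led in Tesc (131 CPM) and Piezo2 (408 CPM), the gene of a mechanically gated channel. Subgroup 5 (158 cells) had 327 CPM of Reg3b (314 to 341), 549 CPM of Reg3g, 2938 CPM of Defb1 and 125 CPM of Wfdc18. Psca was at 81.6 and 43.4 CPM in these subgroups, against 442 to 527 CPM in subgroups 1 to 3. As a pooled level, high Msmb was thus found with and without high Reg3b. A Reg3b UMI was present in 17.3% of subgroup 4 cells and 41.1% of subgroup 5 cells. In subgroups 1, 2 and 3 the share was 40.6%, 41.6% and 33%, so most cells of each subgroup had none.

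**Figure D5:**
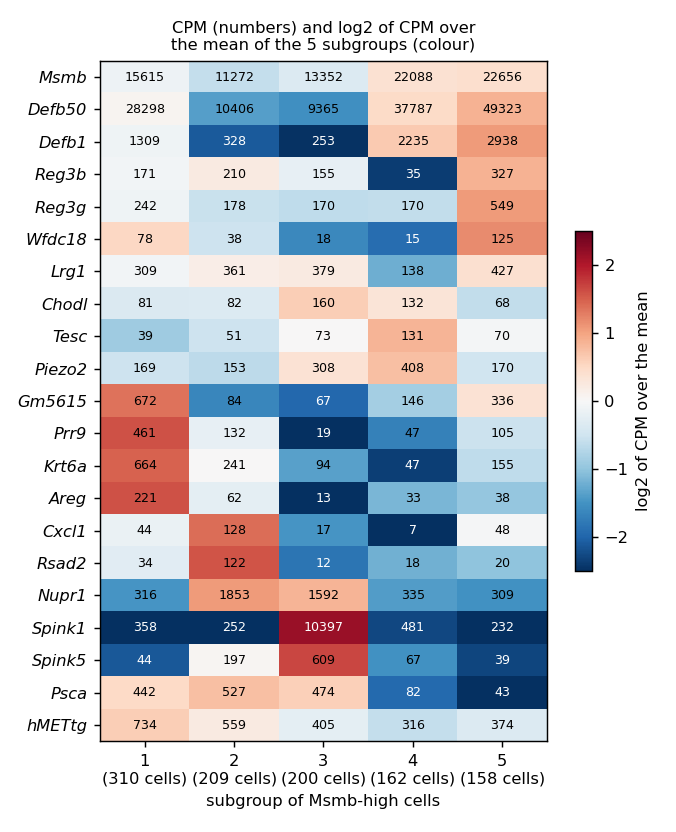
Levels in CPM (numbers) of 21 genes in the 5 larger subgroups of Msmb-high members, coloured by log2 of the level over the mean of the 5 subgroups. Subgroups 4 and 5 are both high in Msmb and Defb50 and differ in Reg3b, Wfdc18 and Tesc.

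Subgroup 6 was 12 cells with Krt6a at 778 CPM, Areg at 332 CPM and Rsad2 at 366 CPM, above subgroups 1 to 5. It also had Col1a1 at 200 CPM and Krt14 at 841 CPM, against at most 1.73 and 72.1 CPM in the other subgroups, and haemoglobin transcripts among its leading genes. Its median of 1.08% mitochondrial UMIs was below the 2.99 to 4.24% of the other subgroups, and the nuclear transcript Malat1 was at 1099 CPM, against 7929 CPM in the other clustered members. Subgroup 2 held 11 of the members called doublets and had the highest Krt5 of subgroups 1 to 5 (25.3 CPM). These values moved with the leading genes of both subgroups and their part was not tested.

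No TripleTg cell met the rule. Of 7687 Epcam+ Ptprc- TripleTg cells 0 qualified, which allows a share of up to 0.0390% (3 counts of the total). All 9492 cells of the TripleTg matrix held 1 Msmb UMI. That is the number of TripleTg cells the authors kept after filtering, whereas the DoubleTg matrix holds 12072 cells. Pooled over Epcam+ Ptprc- cells, Defb50 was at 49.0 CPM in TripleTg and 10630 CPM in DoubleTg, Cldn10 at 0.535 and 128 CPM, and Chodl at 1.80 and 40.9 CPM. Reg3b was at 19.2 and 65.0 CPM and Tesc at 22.2 and 25.7 CPM. Genotype, animal and library cannot be told apart in these values.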

How the data were processed

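The series holds 10x Genomics Chromium 3' v3 single-cell libraries, 1 per genotype. The authors deposited UMI counts per gene and cell, made with Cell Ranger 6.0.2 against mm10 per the labels (the DoubleTg file header names 6.1.1). The members and gene lists were chosen with earlier results of these data known. Sparse counts were read in Python 3.11.15 with scipy 1.17.1, summed over the cells of a group and given as CPM with exact Poisson intervals. Log2 ratios used genes at 10 CPM or more in either group, with sums under 3 UMIs set to 3 and 95% conditional binomial intervals. Shares of cells have exact Clopper-Pearson intervals, and the limit printed for 0 cells is 3 counts of the total. Intervals cover counting error only. Reads shared by near-identical gene copies are uncertain, and 56 symbols stand on more than 1 row. Cells were thinned without replacement to 5000 UMIs, leaving out 165 members and 58 of 336 Ptprc+ Epcam- cells. Scrublet in scanpy 1.11.5 called 266 of 10598 cells doublets, which stayed in. Subgroups came from 2000 variable genes, 20 components, 15 neighbours and Leiden clustering at resolution 0.6. TMM factors came from edgeR 4.0.16. Coordinates are from GENCODE on mm10, in which 27722 of 28000 feature IDs matched. Total UMIs were 302424122 for DoubleTg and 229655259 for TripleTg. Named genes were the label's 5 markers, the 20 lists, the 15 highest and 15 lowest ratios at 50 CPM or more in either group, and the 10 genes highest over every other group. Genes that led subgroups or were followed over Msmb ranges were chosen after their values were seen. The ratio and its interval were tested on simulated data. Some genes are not reported here.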

Additional observations from a re-analysis of the deposited data

How the results depend on the processing

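Without replicate libraries no result can be set against animals, and the limits cut continuous gradients. No paired analysis was possible because each group is 1 library and the results come from no test. The alternative without members under 5000 UMIs or with seminal vesicle UMIs was added after seeing the data.

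A Msmb minimum of 100 left 805 members. The counts of genes 2-fold higher and lower became 185 and 666 after thinning to 5000 UMIs, 127 and 650 with a mean over cells of CPM, 28 and 91 at a minimum of 50 CPM, and 1727 and 2383 with no minimum. The number of genes tested changes with the minimum, so these counts are not shares of the same total. Leaving basal-type and seminal vesicle-type cells out of the comparison gave 192 lower genes. It turned the seminal vesicle marker median to 1.76, Svs4 to 0.0084 and Krt14 to 0.36. In the 1051 members with at least 5000 UMIs and fewer seminal vesicle UMIs, Svs2 was at 28.0 and Svs5 at 23.8 CPM. These lie below the 125 and 111 CPM of that comparison. Krt14 was at 21.6 CPM in members not called doublets and 815 CPM in the 21 called, and the part of doublets was not tested. The hMETtg share was 78.5% at a Msmb minimum of 25, 76.9% after thinning and 93.2% without low-depth and seminal vesicle-bearing members.

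The mucosal defence median was 0.64 and 0.49 at Msmb minimums of 25 and 100, 0.45 with no upper limits on Pbsn and Sbp, 0.82 thinned, 0.49 on totals without lobe secretory genes, 0.60 with TMM factors, 0.98 as a mean over cells and 0.60 without basal-type and seminal vesicle-type cells. The proximal median was -0.31 and -0.67 at the same minimums, -0.60 with no upper limits, -0.60 thinned, -0.53 without lobe secretory totals, -0.53 as a mean over cells and -0.27 without basal-type and seminal vesicle-type cells. The androgen median was 0.21 with no upper limits, 0.11 thinned, 0.18 without lobe secretory totals, 0.33 as a mean over cells and 0.14 without those cell types, and the ER median 0.57, 0.38, 0.53 and 0.38 under the last 4 settings. None of these 4 medians changed sign, but not every list was as stable. Of 19 list medians, 17 kept their direction at a Msmb minimum of 100, thinned and as a mean over cells. The count was also 17 without basal-type and seminal vesicle-type cells. It was 18 at a minimum of 25, with no upper limits and without lobe secretory totals.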
